A study of Populus ussuriensis with 20 samples.

Results

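Among the genes of Ussuri poplar (Populus ussuriensis) measured at the bases of rooting stem cuttings, 79 were higher 24 h after transfer to new medium than at 2, 4 and 12 h, at both phosphate levels. They were chosen by their measured values from 34699 genes in the table. A gene first needed an FPKM (fragments of a gene scaled by its length and by the library total) of at least 1 in at least 2 libraries, which 24934 genes had. The values were averaged as log2(FPKM + 1) over the 4 libraries of a time, and the mean at 24 h had to exceed the highest of the means at 2, 4 and 12 h by at least 0.8. The same difference, called the rise here, also had to be at least 0.4 within each phosphate level. The 79 genes made up 0.317% of the genes that passed the first step, and all 79 were fitted in the phosphate comparisons. The difference of 0.8 alone was met by 84 genes, of which 5 were dropped for a rise under 0.4 at one phosphate level. The 4 libraries at 8 h counted in the first step alone and took no part in the differences. Without the first step the same 79 genes were kept.

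Adventitious roots are roots that grow from stem or leaf tissue rather than from another root. In a cutting, cells near the stem base divide, organize into a primordium and push out through the surrounding tissue, while the cut end seals its wound. Phosphate is needed for nucleic acids, membrane lipids and energy transfer, and plants short of it raise phosphate transporters and phosphatases and change how their roots branch, as known mainly from Arabidopsis. A transcript that is higher at one time in such a tissue piece can belong to any of its cells.

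The cuttings came from 3-week-old plants and spent 5 days on solid Woody Plant Medium under a daily light and dark cycle, and already carried root primordia when they were transferred. All 10 groups share this history and the modified liquid form of that medium, and they differ in its KH2PO4, at 10 or 200 µM, and in the time of collection, at 2, 4, 8, 12 or 24 h. Each group held 2 libraries, made from total RNA of the stem base, that is primordia and nearby tissue. The labels do not say whether the 2 libraries of a group came from separate cuttings or cultures, so p-values reflect only how far these samples differ, and that spread may be technical. No sample was taken at transfer, and hours in the liquid medium, age of the cutting and time of day cannot be told apart. In such bulk samples, fewer cells of a type and less RNA per cell cannot be told apart either. The genes carry identifiers that the table does not pair with names or descriptions, so neither a role nor a position in the genome is given for any of them, and the tissue could not be checked against marker genes.

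The libraries held 14053677 to 15764764 fragments on the genes of the table, a 1.12-fold range. Replicate libraries differed by a log2 SD of 0.229 to 0.430 over the tested genes, with the widest spread at 10 µM and 8 h. The 79 genes spread more widely, with SDs of 0.334 to 0.864 between replicates. One library stood apart from its time: replicate 2 at 10 µM and 8 h differed from the mean of the other 3 libraries at 8 h with a log2 SD of 0.392 over the tested genes, and from the mean of the 12 h libraries with an SD of 0.271. The other 3 libraries at 8 h had SDs of 0.262 to 0.302 from the rest of their time. Replicate 1 at 10 µM and 8 h was as close to the means at 2 h (SD 0.263) and 4 h (0.262) as to its own time (0.262). The count of genes at least 0.8 higher at 24 h than at 8 h is also given without replicate 2 at 10 µM and 8 h. The same holds for the medians that use 8 h and the phosphate calls at 8 h.

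The rise of the 79 genes had a median of 0.96 on the log2(FPKM + 1) scale, which is 1.95-fold, with quartiles at 0.87 and 1.11 and extremes at 0.80 and 2.28. It reached 1 or more in 32 genes and 1.5 or more in 7. These numbers describe what the rule selected and were not tested. At the threshold itself, the lowest 2 inside it had a rise of 0.804 and 0.808, and the highest 2 outside it of 0.795 and 0.796. At 10 µM the rise had a median of 0.85 and ran between 0.51 and 2.65. At 200 µM the median was 1.03 and the range 0.43 to 2.19. The rise was larger at 200 µM than at 10 µM in 54 of 79 genes, and 34 genes reached 0.8 at both levels. Both counts come from values that the rule used, and their shares over the tested genes were not computed.

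Per length and library, the 79 genes differed widely in level, and their median was below that of all tested genes before 24 h. At 2, 4, 8, 12 and 24 h their median FPKM was 3.38, 3.90, 5.56, 5.21 and 12.5. Over all tested genes the median stayed between 8.55 and 8.92 FPKM at these times. After 24 h, 15 of the 79 genes were under 5 FPKM, 37 between 5 and 20, 24 between 20 and 100, and 3 above 100. The gene lengths worked out from the FPKM steps had a median of 1456 bases, against 1807 bases over all tested genes, and ranged from 291 to 3523 bases. In its lowest library at 24 h a gene of the set had a median of 244 fragments, and 1 gene had a library with under 10.

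Taken library by library, each of the 4 libraries at 24 h stood above the other 16 in the median over the 79 genes. As the deviation from a gene's mean over 20 libraries, the medians at 24 h were 0.72 and 0.92 (log2) in the 10 µM libraries and 0.98 and 1.18 in the 200 µM libraries. The other libraries lay between -0.58 and 0.05. Over all tested genes the library medians lay between -0.029 and 0.033, with the 4 libraries at 24 h at 0.025 to 0.033. In 60 of 79 genes all 4 libraries at 24 h exceeded all 12 at 2, 4 and 12 h, which held for 1.97% of the tested genes, and the rule used these values.

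**Figure D1:**
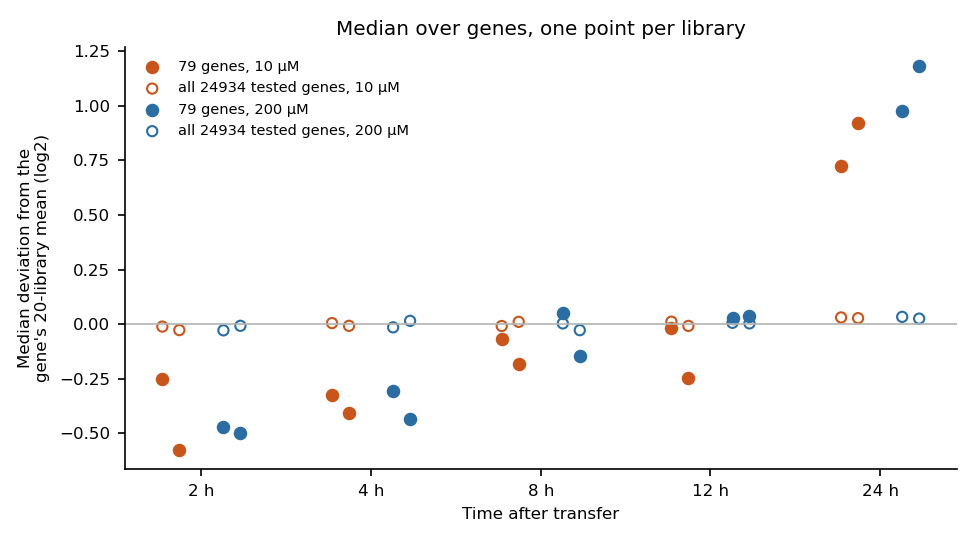
Median deviation of log2(FPKM + 1) from each gene's mean over 20 libraries (y axis, log2) in every library, by time after transfer (x axis, h). Filled points are the 79 genes and open points all 24934 tested genes, in orange for 10 µM and blue for 200 µM. The 4 filled points at 24 h lie between 0.72 and 1.18, above all filled points of the earlier times.

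**Figure D2:**
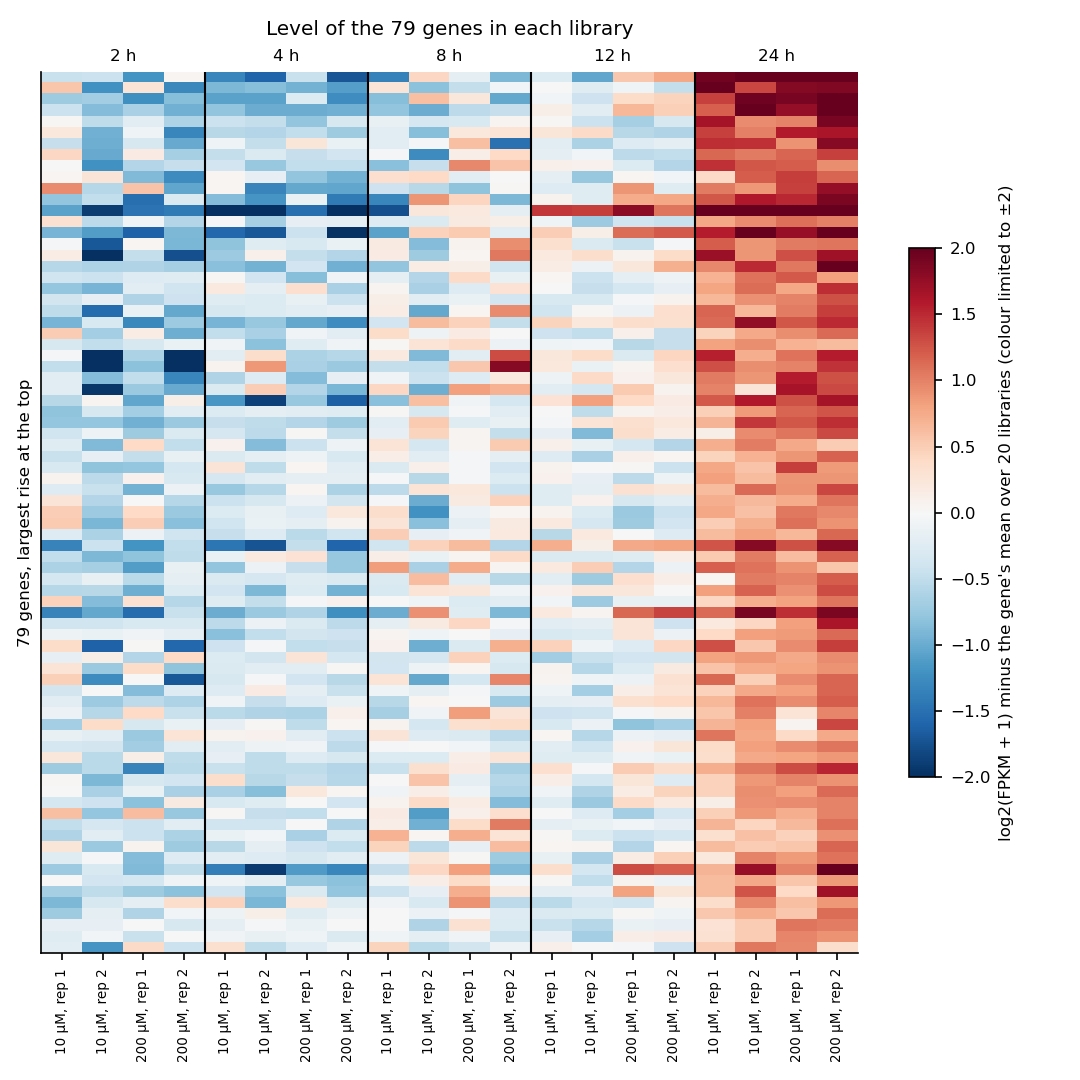
Deviation of log2(FPKM + 1) from each gene's mean over 20 libraries (colour, limited at 2 on either side) for the 79 genes (rows, largest rise at the top) in the 20 libraries (columns, grouped by time). The 24 h columns are the reddest in almost all rows, in some rows the 12 h columns are red too, and the 4 columns at 8 h differ among themselves.

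The largest rise belonged to Potri.001G176000. It measured 17.4 and 26.2 FPKM in the 10 µM libraries and 19.0 and 29.4 FPKM in the 200 µM libraries at 24 h, while the 12 libraries at 2, 4 and 12 h lay between 0.479 and 7.22 FPKM. The 24 h libraries thus stood apart from all of these, and they also exceeded the 4 libraries at 8 h (0.894 and 5.41 FPKM at 10 µM, 3.20 and 1.59 FPKM at 200 µM). Its rise was 2.28 on the log2 scale (2.65 at 10 µM and 1.70 at 200 µM) and lay between 1.94 and 2.54 when single libraries were left out.

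Potri.019G073700, with the next largest rise of 2.06, had 13.3 and 5.86 FPKM in the 10 µM libraries of 24 h, and 8.78 and 8.85 FPKM in the 200 µM ones. At 2 h it had 2.98 and 0.176 FPKM at 10 µM, and 2.30 and 0.112 FPKM at 200 µM, so the first library of each level was high and the second low. The highest library before 24 h was thus still below the lowest at 24 h. At 8 h its 4 libraries held 0.541 to 2.25 FPKM.

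The most abundant of the 79 genes, Potri.009G114701, was chosen for description after its values were seen. At 24 h it averaged 1494 ± 224 FPKM under low phosphate (10 µM) and 1919 ± 257 FPKM under the higher level (200 µM), with SDs over 2 libraries. At 2 h the corresponding means were 958 ± 583 and 952 ± 392 FPKM (SD, n = 2 each). One of the 2 libraries at 10 µM and 2 h held 1371 FPKM, above the lower 10 µM library at 24 h (1336 FPKM), so for this gene the times overlapped within the low phosphate level. Its means over both levels were 955, 897, 902, 843 and 1707 FPKM at 2, 4, 8, 12 and 24 h.

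**Figure D3:**
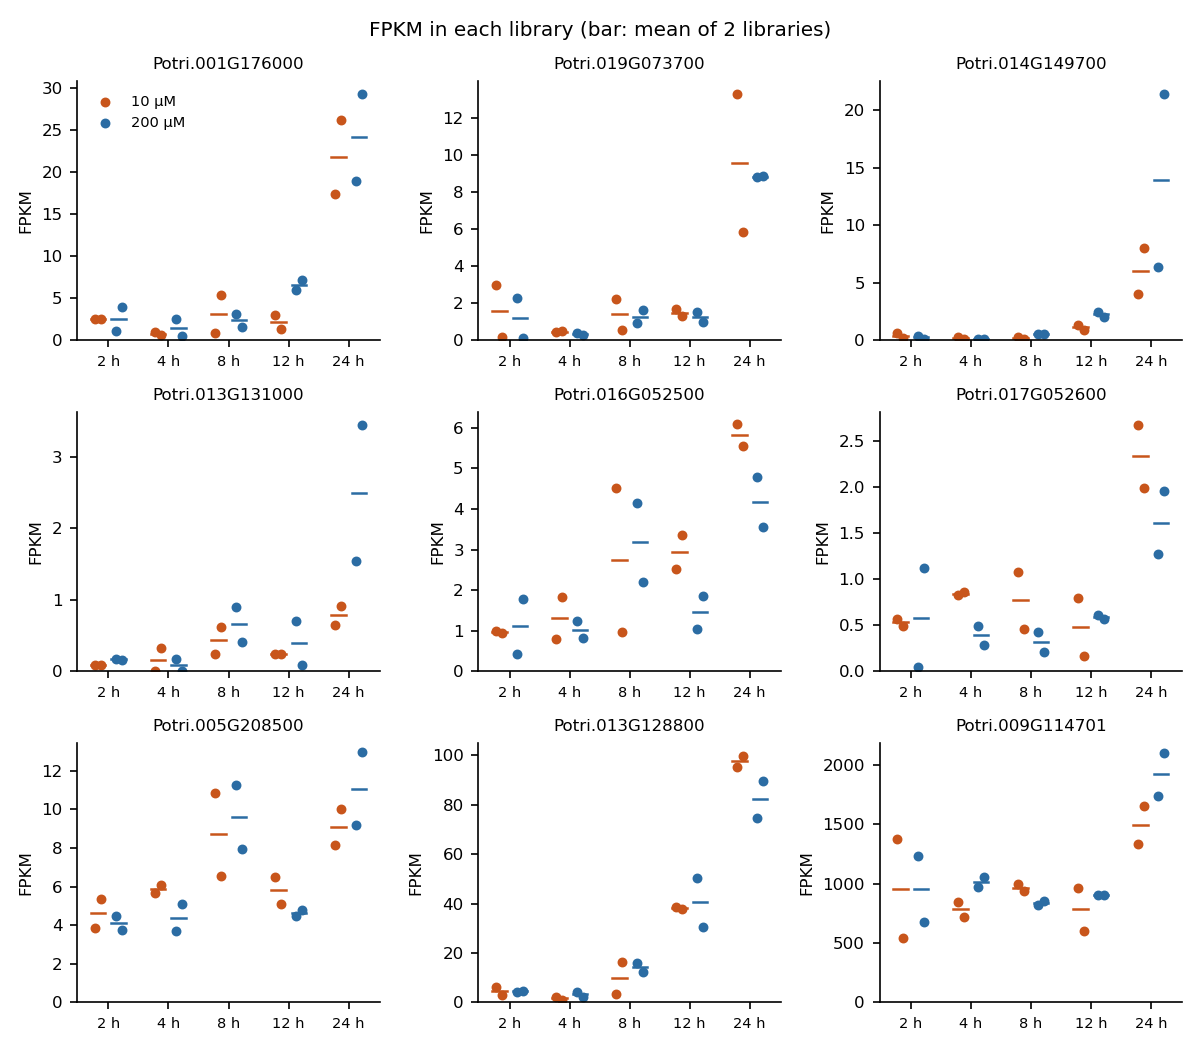
FPKM (y axes, linear, separate scale per gene) of 9 genes in every library by time (x axes, h), with orange points for 10 µM, blue points for 200 µM and a bar at the mean of the 2 libraries. Potri.001G176000 has 4 points at 17.4 to 29.4 FPKM at 24 h and none above 7.22 FPKM earlier, whereas Potri.005G208500 is about as high at 8 h as at 24 h.

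The 8 h libraries, 1 of which was closer to 12 h than to its own time, give values that the rule did not use. The mean at 24 h was above the mean at 8 h in 79 of 79 genes (59.1% of the tested genes) and by at least 0.8 in 64 of 79, or 81.0% (0.878% of the tested genes). The 24 h libraries entered the choice, so this difference was not tested. Its median over the 79 genes was 0.97 (log2), with a range of 0.14 to 2.97, and the median over all tested genes was 0.04. All 4 libraries at 24 h exceeded all 4 at 8 h in 51 of 79 genes (6.19% of the tested genes). At each phosphate level taken alone, 66 of 79 genes were higher at 24 h than at 8 h by at least 0.4 (2.62% of the tested genes). That count of 64 was between 53 and 68 when one library at 8 or 24 h was left out, with 53 without replicate 2 at 10 µM and 8 h. Without that library the median difference was 0.95.

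Levels at 8 h were also a little above those of the other early times. The mean at 8 h was above the means at 2, 4 and 12 h in 34 of 79 genes (43.0%, against 17.9% of the tested genes) and below all of them in 1 of 79 (18.5% of the tested genes). The 8 h mean minus the average of the means at 2, 4 and 12 h had a median of 0.21 over the 79 genes and 0.0016 over the tested genes. Leaving out the second 10 µM library of 8 h gave 0.29. The rule caps the levels at 2, 4 and 12 h and not the level at 8 h, so these values are descriptions. The 2 libraries at 10 µM and 8 h were far apart, with a log2 SD of 0.864 over the 79 genes, and the 2 libraries at 200 µM and 8 h had an SD of 0.677.

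Potri.005G208500 had the smallest difference between 24 h and 8 h, and it was singled out after its values were seen. At 24 h its libraries measured 8.17 and 10.0 FPKM (10 µM) and 9.17 and 12.9 FPKM (200 µM), against 10.9 and 6.56 FPKM (10 µM) and 11.2 and 7.94 FPKM (200 µM) at 8 h. The 8 libraries overlapped, with a log2 difference of 0.14 between the means, so for this gene the name "raised only at 24 h" did not hold. It was the 1 gene of 79 with a difference under 0.4.

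Potri.013G128800 had the largest difference between 24 h and 8 h, 2.97 on the log2 scale, and was likewise chosen after its values were seen. The 24 h libraries held 95.2 and 99.9 FPKM (10 µM) and 74.7 and 89.7 FPKM (200 µM), against 3.43 and 16.5 FPKM (10 µM) and 16.1 and 12.2 FPKM (200 µM) at 8 h. Its means over both levels were 4.52, 2.48, 12.1, 39.4 and 89.9 FPKM at 2, 4, 8, 12 and 24 h. The level thus climbed in steps after 4 h, and 24 h was its highest time but not the only raised one.

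**Figure D4:**
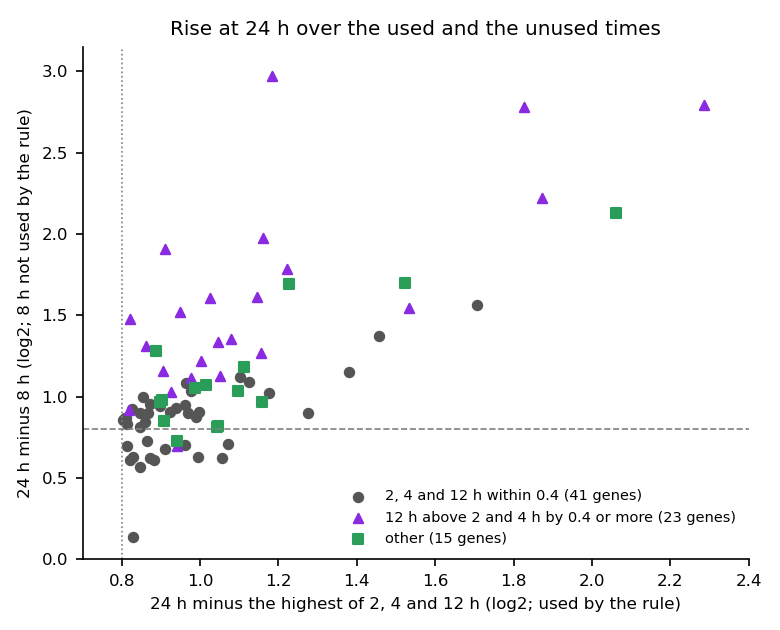
Mean log2(FPKM + 1) at 24 h minus the highest mean of 2, 4 and 12 h (x axis, used by the rule) and minus the mean at 8 h (y axis, not used) for the 79 genes, with a dotted and a dashed line at 0.8. Of the 79 points 64 lie on or above the dashed line, and the genes that were already higher at 12 h (triangles) hold the largest values on the y axis.

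Earlier time courses divided the 79 genes into 3 shapes, with limits set after the values had been seen. In 41 genes the means at 2, 4 and 12 h lay within 0.4 of each other. Along the 5 times their median FPKM was 5.41, 5.56, 7.18, 5.52 and 12.8. In 23 genes the mean at 12 h was already at least 0.4 above both 2 h and 4 h, and in 10 of them at least 0.8 above. Along the 5 times their median FPKM was 2.55, 1.66, 4.30, 6.0 and 14.3, with a higher level at 12 h than at 2 and 4 h. The 8 h mean of 21 of these 23 genes lay between the higher of the 2 h and 4 h means and the 12 h mean. The remaining 15 genes had neither shape.

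Over the whole set, 12 h was the highest of the 3 earlier times in 60 of 79 genes (43.4% of the tested genes), 4 h in 11 (26.8% of the tested genes) and 2 h in 8 (29.8% of the tested genes), all from values that the rule used. A difference of at least 0.8 between 24 h and 8 h was found in 28 of the 41 even genes, in 22 of the 23 climbing genes and in 14 of the 15 others. The even genes had the smallest median difference between 24 h and 8 h, 0.90 (log2), against 1.48 in the climbing genes and 1.03 in the others. Most climbing genes had an 8 h mean under the 12 h mean, although the shape's definition does not use 8 h. Why their median difference was larger was not tested. The even genes were also shorter, with a median length of 1133 bases, against 1671 bases in the climbing genes and 1540 bases in the rest.

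When the same rule was turned to other times, it kept fewer genes on the raised side. It kept 43 genes raised at 2 h, 1 at 4 h and 3 at 12 h, each over the other 3 of 2, 4, 12 and 24 h. On the lowered side it kept 41, 15, 77 and 20 genes at 2, 4, 12 and 24 h. At 24 h the raised genes thus outnumbered the lowered ones, 79 against 20, whereas at 12 h lowered genes prevailed. The 20 genes lowered at 24 h had a median of 5.03 FPKM at 24 h and of 19.6 FPKM at 2 h.

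Some of the 79 genes neighbour each other by identifier. Within 5 places of another gene of the set in the sorted identifiers stood 17 of 79 genes (21.5%), in 3 runs of 3 genes and 4 pairs. Among the genes that the rule kept elsewhere the share was 9 of 41 (22.0%) for those lowered at 2 h, 7 of 77 (9.09%) for those lowered at 12 h, 3 of 43 (6.98%) for those raised at 2 h and 2 of 20 (10.0%) for those lowered at 24 h. It was 0 of 15 for those lowered at 4 h and 0 of 3 for those raised at 12 h. The lists differ in size, and the share for a list of any size over the whole table was not computed. The phosphate difference at 8 h (10 minus 200 µM, log2), which the rule did not use, lay between 0.36 and 0.59, between -0.89 and -0.66 and between -0.92 and -0.76 in the runs of 3. In the 4 pairs it was -0.93 and -0.097, -0.37 and -0.012, -0.39 and -0.28, and 0.21 and 0.38, so the genes of a pair were not always alike. How reads shared by near-identical copies were counted is not given in the sources used here, so values of genes within a run may not be independent.

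The study set low against higher phosphate. The libraries at 2, 4, 12 and 24 h of both levels chose the 79 genes. The condition on each level removed genes with a rise under 0.4 at one level and set no limit on the gap between the levels. The comparison at 8 h is thus the one whose values took no part in the rule's differences. Its estimate of the spread still comes from a fit of all 20 libraries, among them those that chose the genes. The counts at the other times, over 5 times and for variation with time are descriptions beside the share of all tested genes. Nothing is read from them. In limma's moderated test with Benjamini-Hochberg adjustment over all 24934 genes, 0 genes passed a threshold of 0.05 at 8 h (0%) or at 24 h (0%), and none of the 79 did. At 24 h an unadjusted p under 0.05 was reached by 10 of the 79 genes (12.7%), all 10 lower at 10 µM. Over all tested genes the share was 5.10% in either direction and 2.82% for lower values at 10 µM. At 8 h it was reached by 7 of the 79 genes (8.86%), again all lower at 10 µM, beside 5.96% of the tested genes in either direction and 3.01% for lower values. At 12 h there were 14 (17.7%), 13 of them lower, beside 4.54% of the tested genes in either direction. The share for lower values alone was not computed at 2, 4 and 12 h. At 4 h an unadjusted p under 0.05 was found in 3 (3.8%), 1 of them lower, beside 3.59% of the tested genes in either direction. At 2 h it was found in 1 (1.27%), higher at 10 µM, beside 1.97% of the tested genes in either direction. That gene, Potri.013G070350, was named after its values were seen. It measured 6.56 and 7.80 FPKM at 10 µM, against 2.97 and 2.06 FPKM at 200 µM at 2 h, so the groups did not overlap. Its log2 difference was 1.23 ± 0.24 (SE), and its adjusted p of 0.430 in limma's test was the smallest of the 79 genes at any single time.

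The smallest adjusted p of any of the 79 genes was 0.892 at 24 h and 0.692 at 8 h in limma's test. A fit of fragments recovered from the FPKM steps (limma voom) called 4 genes at 24 h and 0 at 8 h, none of them among the 79. When single libraries were left out, 0 to 2 genes passed at 24 h and 0 to 352 at 8 h. The upper end at 8 h came without replicate 1 at 10 µM and 8 h, which leaves 1 library in that group, assumed to vary like the others. Genes of the set were among those called there, and nothing about the set is read from that fit. Without replicate 2 at 10 µM and 8 h, 1 gene passed at 8 h, and it was not one of the 79. At a single time the 95% confidence interval of a difference reached 0.72 (log2, median over the 79 genes) on either side. Over all tested genes it reached 0.35. For a typical gene of the set a difference below 0.72 was thus not detectable at this number of libraries. The interval is not adjusted for the number of genes tested, so passing the adjusted threshold took a larger difference.

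Averaged over the time course, the phosphate levels differed in 11 genes (0.0441% of the tested genes), and none of the 79 was among them. The smallest adjusted p of the 79 genes in this comparison was 0.522 by limma with Benjamini-Hochberg adjustment. In the same test 9 of 79 had an unadjusted p under 0.05 (11.4%, against 7.13% of the tested genes in either direction). Of these 9 genes, 8 were lower at 10 µM, and the share of the tested genes for lower values alone was not computed. The count of 11 lay between 6 and 25 when single libraries were left out, with 25 again without replicate 1 at 10 µM and 8 h. In limma's F test for variation of the phosphate difference with time, 0 genes passed (0%), also with voom, and 31 did without that same library. An unadjusted p under 0.05 was reached there by 9 of 79 genes (11.4%, against 3.01% of the tested genes).

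At 24 h, 67 of the 79 genes (84.8%) had a lower mean at 10 µM than at 200 µM, beside 50.6% of the tested genes. The same 24 h libraries chose the genes for being high at that time, which favours a library that reads high, so this count is a description. Earlier the counts were 32 after 2 h (49.8% of the tested genes), 40 after 4 h (50.8% of the tested genes), 46 after 8 h (47.7% of the tested genes) and 53 after 12 h (47.2% of the tested genes). The median difference (10 minus 200 µM, log2) over the 79 genes was 0.05, -0.03, -0.12, -0.20 and -0.24 at 2, 4, 8, 12 and 24 h. Over the tested genes it lay between -0.0031 and 0.0098 at these times. The 20 genes lowered at 24 h had a median of -0.19 at 24 h.

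The size of this difference changed when single libraries were left out. The second library at 200 µM was the highest of the 4 at 24 h in 53 of 79 genes. These libraries also chose the genes, and the share over all tested genes was not computed. The median difference of -0.24 became -0.075 without the second library at 200 µM and -0.10 without the first library at 10 µM. It became -0.37 without the second library at 10 µM and -0.43 without the first at 200 µM. The count of 67 became 47, 50, 64 and 70 in the same order. Between the 2 libraries of one level the 79 genes differed by about as much, since the first library minus the second had a median of -0.26 at 10 µM and -0.27 at 200 µM. Among libraries of the same number, the median deviation was 0.72 at 10 µM against 0.98 at 200 µM, and 0.92 against 1.18. Both 10 µM libraries lay below both 200 µM libraries in 28 of 79 genes at 24 h (35.4%, beside 21.5% of the tested genes), and above both in 5 (22.0% of the tested genes). At 8 h they lay below in 15 of 79 genes (12.7% of the tested genes) and above in 6 (14.4% of the tested genes).

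**Figure D5:**
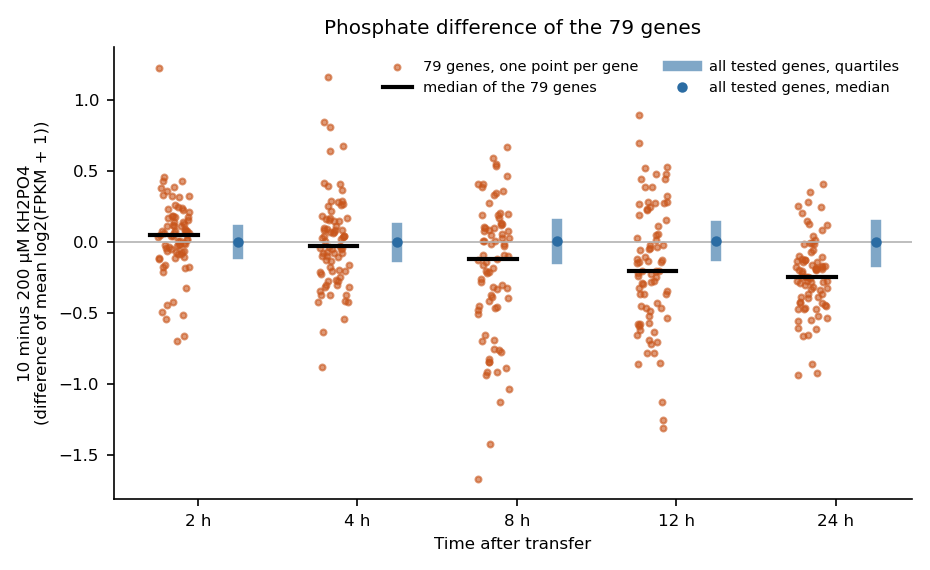
Phosphate difference (y axis, mean log2(FPKM + 1) at 10 µM minus 200 µM) of the 79 genes at each time after transfer (x axis, h). Each orange point is a gene, the black bar is the median of the 79 genes, and the blue bar and point are the quartiles and the median of all tested genes. The black bar lies at 0.05 at 2 h and at -0.24 at 24 h, and no point passed the adjusted threshold.

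Within the 3 shapes the mean at 24 h was lower at 10 µM in 34 of the 41 even genes, in 20 of the 23 climbing genes and in 13 of the 15 others, with median differences of -0.27, -0.19 and -0.21.

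Potri.014G149700 had the largest negative phosphate difference at 24 h. It measured 4.03 and 8.00 FPKM at 10 µM, against 6.40 and 21.4 FPKM at 200 µM, so the groups overlapped and the second library at 200 µM stood alone. The log2 difference was -0.94 ± 0.38 (SE, 95% half-width 0.82), with an adjusted p of 0.892 in limma's test. It became -0.14 without the second library at 200 µM and -1.74 without the first. Before 24 h the gene was weakly expressed, with means at 10 and 200 µM of 0.184 and 0.554 FPKM at 8 h, and of 1.13 and 2.26 FPKM at 12 h.

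Potri.013G131000 measured 0.654 and 0.915 FPKM at 10 µM, against 1.55 and 3.45 FPKM at 200 µM at 24 h, and here the groups did not overlap. Its log2 difference was -0.92 ± 0.28 (SE), with an adjusted p of 0.892 in limma's test. These values rest on 8 and 11 fragments in the 10 µM libraries and on 19 and 43 in the 200 µM libraries, and at 4 h a library of each level held 0 fragments of this gene. The difference became -0.52 without the second library at 200 µM and -1.32 without the first.

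In the other direction the differences were smaller. Potri.016G052500 measured 6.09 and 5.54 FPKM at 10 µM, against 4.78 and 3.56 FPKM at 200 µM at 24 h, with a log2 difference of 0.41 ± 0.42 (SE) and an adjusted p of 0.902 in limma's test. That difference lay between 0.23 and 0.58 when single libraries were left out, with 0.23 without the second library at 200 µM. Its 2 libraries at 10 µM and 8 h held 4.51 and 0.963 FPKM, a wider gap than that between the levels at 24 h. Potri.017G052600 measured 2.68 and 1.99 FPKM at 10 µM, against 1.27 and 1.96 FPKM at 200 µM, with a log2 difference of 0.35 ± 0.30 (SE) and an adjusted p of 0.898 in limma's test. It was 0.16 without the first library at 200 µM, 0.21 without the first at 10 µM and 0.55 without the second at 200 µM. For both genes the 10 µM libraries lay above both 200 µM libraries, by little in the second. Over all alternatives the adjusted p-values of these 4 genes in limma's test ran between 0.205 and 1.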

How the data were processed

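Gene expression was deposited by the authors as FPKM, that is fragments scaled by gene length and library total, for 20 libraries, and 0 further columns of values were present. The submitters' processing notes name Bowtie2 2.2.3 and HISAT2 2.1.0 but not what each did. The genome build, annotation and FPKM program were not given in the sources used here. Library totals, gene lengths and whole fragments were worked out from the steps between FPKM values, and all 24934 tested genes (100.0%) came out whole within 0.06 fragment. No library was scaled further.

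Tests used limma 3.58.1 in R 4.3.3 on log2(FPKM + 1) with a pseudocount of 1 and a mean trend, with 1 mean for each of 10 groups of 2 libraries and two-sided Benjamini-Hochberg adjustment over all 24934 genes. A fold on this scale understates the change of low genes. The fit and the rule were tested on simulated data. The members, lists and shapes were chosen with earlier results of these data known. Keyword lists of pathways and tissue markers were void, since no gene descriptions were used here. Named genes are the 2 with the largest rise and the 2 with the largest phosphate difference in each direction at 24 h, beside 4 named after their values were seen.

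Alternatives were a pseudocount of 0.1, other filters and thresholds, quantile normalization, voom, a replicate block and leaving out libraries.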

Additional observations from a re-analysis of the deposited data

How the results depend on the processing

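The rule kept 176 genes with a pseudocount of 0.1, 164 with a difference of 0.6 and 32 with a difference of 1, and 79, 78 and 66 with no filter, a filter on 4 libraries and quantile normalization. Leaving out single libraries gave 65 to 118 genes, and 34 of the 79 were kept in all 16 such sets and 72 in at least 12. The median of 24 h minus 8 h became 1.14 with a pseudocount of 0.1 and 0.94 to 1.07 with single libraries left out. The median of 8 h minus the other early times lay between 0.16 and 0.29, and that of 10 minus 200 µM at 24 h between -0.43 and -0.075. The counts chosen after seeing the data, 67 genes lower at 10 µM and 64 higher at 24 h than at 8 h, lay between 47 and 70 and between 53 and 68.

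Phosphate comparisons called 4 genes at 24 h with voom on recovered fragments and 1 in the test of variation with time with no filter. Leaving out single libraries gave 0 to 2 at 24 h, 0 to 352 at 8 h, 6 to 25 over 5 times and 0 to 31 for variation with time. The cause was not tested. Libraries with the same replicate number do not count as paired, since their deviations correlated above 0.1 at 2 h alone, with 0.50, 0.07, -0.24, 0.07 and -0.01 at 2, 4, 8, 12 and 24 h. With the replicate number as a block, 0 genes passed at 8 h, 0 at 24 h, 8 over 5 times and 0 for variation with time. With the numbers crossed at 8 h, a block added after seeing the data, 0 passed at 8 h, 6 at 24 h, 14 over 5 times and 0 for variation with time. With 2 libraries a group, the number of libraries limits the precision of each difference, and the fewest fragments, 8 in a library at 24 h, limit the weakest gene.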
